A study of Mus musculus with 44 samples.

Results

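Gene expression in the dorsal hippocampus of Kdm5b mutant mice was compared between naive animals (0 h) and animals killed 1 h after contextual fear conditioning. The comparison took every library of the second cohort with the homozygous mutant genotype and either of these time points, which gave 12 of the 36 libraries with gene counts, 6 at each time point. The mutants were homozygous for the Kdm5bDARID allele, which truncates the JmjN domain and removes the ARID domain of the demethylase. They were F2 animals of a C57BL/6J by 129S2/Sv intercross aged 7 to 8 weeks. Each group held 3 males and 3 females, and each library came from 1 mouse. The 0 h mice stayed in the home cage, and the 1 h mice had explored a conditioning chamber and received brief foot shocks there. WT littermates of the same intercross, 6 at 0 h and 6 at 1 h, and 6 mutants taken at 3 h were used to place the mutant values. The deletion was present in all cells and throughout development. Both mutant groups carried it, so the comparison from 0 h to 1 h measured the change with time within mutants and not the effect of the allele.

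A salient experience makes hippocampal neurons transcribe immediate early genes, which do not need new protein synthesis to be switched on. The first products are transcription factors of the FOS and JUN (AP-1), EGR and NR4A families. Other early products act at synapses, or feed back on the kinase pathways that carried the signal. KDM5B removes methyl groups from lysine 4 of histone H3, a mark found at active promoters. Foot shock also raises corticosterone, so a hippocampal response at this time can hold both neuronal activity genes and targets of the glucocorticoid receptor.

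The 12 libraries held 53798470 to 86720768 counts, with medians of 65503126 at 0 h and 66163744 at 1 h. Levels are in CPM, counts scaled to library size with TMM normalization, and changes are log2 fold changes with standard errors (SE). The level of Kdm5b (gene 75605, chr1:134560178-134632878, overlapping Mgat4e) is read over the whole gene, so transcripts that lack the deleted exons count like any others. It was 75.6 to 86.8 CPM at 0 h and 81.2 to 90.6 CPM at 1 h in mutants, and 81.5 to 88.8 CPM in WT at 0 h. The change in mutants was 0.10 (SE 0.04, edgeR adjusted p 0.356). Summed markers in the 12 libraries were at 8979 to 11653 CPM for 5 genes of excitatory neurons and 561 to 774 CPM for 9 of dentate granule cells. Sex read from Y-linked counts matched the label in all 12. It differed in 2 libraries used for comparison, labelled WT 1 h male 1 and mutant 3 h female 2. The edgeR counts of genes, and the medians of the genes higher at 1 h in mutants, are given with and without them. The WT medians of other gene lists and the WT shares of counts are given only with WT 1 h male 1 included. DESeq2 was not run without these 2 libraries. They also stood apart in other genes. The library labelled WT 1 h male 1 held 11.7 CPM of Fos and 106 CPM of Egr1, where the other WT 1 h libraries held at least 19.2 and 186 CPM, and 16.8 CPM of Asic4, where the other WT libraries at 0 h and 1 h held at most 7.12 CPM. The library labelled mutant 3 h female 2 held 43.9 CPM of Fos and 3.74 CPM of Asic4, where the other mutant libraries held at most 33.2 CPM and at least 5.44 CPM. Asic4 was chosen for this after its values were seen, and whether the 2 libraries were exchanged was not tested. In bulk tissue, fewer cells of a type and less RNA per cell cannot be told apart.

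Of 17282 genes tested with edgeR, 52 were higher at 1 h than at 0 h with a Benjamini-Hochberg adjusted p under 0.05 (0.301% of genes tested), and 2 were lower (0.0116%). These are called DEGs here. The upregulated genes spanned log2 fold changes of 0.18 to 1.53 with a median of 0.39, against a median of −0.01 over all genes tested. Only 4 of the 52 rose more than 2-fold, and 14 rose more than 1.5-fold. In 47 of the 52 all 1 h libraries lay above all 0 h libraries, a separation seen in 1.07% of all genes tested, and in both downregulated genes all 1 h libraries lay below, as in 0.289% of all genes. Before adjustment 1076 genes were higher with p under 0.05 (6.23%) and 837 lower (4.84%). The count was set partly by the tool: DESeq2 with the same covariate called 260 genes higher and 110 lower, among them all 54 DEGs. Leaving out 1 library at a time gave 26 to 84 upregulated genes, the lowest without mutant 0 h male 3 and the highest without mutant 0 h female 2, and 23 DEGs were called in all 12 cases. Among those that were not, Egr4 was called in 8 cases, Nr4a3 in 9, Homer1 in 6, Srf, Rara and Tmem252 in 5 each and Rbm14 in 3.

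**Figure D1:**
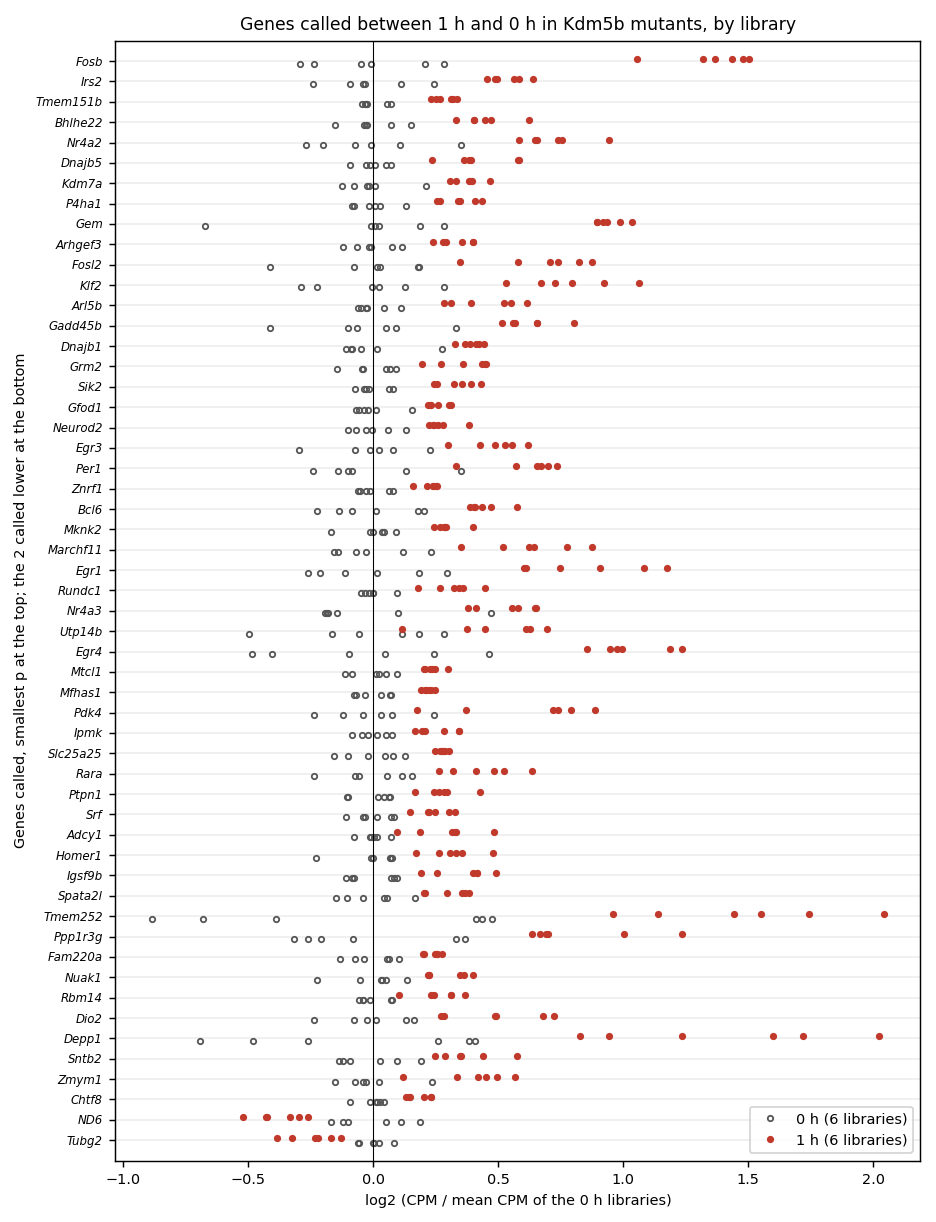
Levels of the 54 DEGs in each mutant library, as log2 of CPM over the mean of the 0 h libraries (x axis), with genes ordered by p and the 2 downregulated genes at the bottom. Open grey points are the 6 libraries at 0 h and red points the 6 at 1 h; the groups overlap in 5 of the 54 genes, which are Per1, Nr4a3, Utp14b, Pdk4 and Zmym1.

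AP-1 factors bind DNA as FOS and JUN dimers. Of 15 members tested, 2 were upregulated, Fosb and Fosl2, and none was downregulated, with a list median of 0.27. Fosb (gene 14282, chr7:19302696-19310118) had the smallest p of all genes. Its level was 8.29, 9.97 and 12.4 CPM (lowest, median and highest library) at 0 h and 21.2, 26.8 and 28.8 CPM at 1 h. The groups were far apart, and the change was 1.37 (SE 0.09, adjusted p 7.84e-06). Fosl2 (gene 14284, chr5:32136472-32157840), another FOS-related partner of JUN proteins, went from 37.8, 51.1 and 57.2 CPM to 64.1, 83.1 and 92.2 CPM, a change of 0.69 (SE 0.09, adjusted p 0.00843).

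Fos and Junb, the classical members of this family, did not pass the threshold although their groups did not overlap. Fos (gene 14281, chr12:85473890-85477274) was at 6.25, 8.70 and 19.8 CPM at 0 h and 24.2, 29.5 and 33.2 CPM at 1 h, a change of 1.31 (SE 0.32, adjusted p 0.145). Junb (gene 16477) was at 39.9, 51.3 and 86.9 CPM and then at 88.8, 99.0 and 124 CPM, a change of 0.81 (SE 0.22, adjusted p 0.192). In both genes the SD over libraries was larger at 0 h, at 6.2 CPM for Fos and 20.8 CPM for Junb. At 1 h it was 3.8 and 14.7 CPM. Whether this spread set their adjusted p was not tested. Male 1 and female 1 held 19.8 and 18.9 CPM of Fos at 0 h, and the other 0 h libraries at most 10.2 CPM. Among 17 activity-regulated genes of a panel (Fos, Fosb, Fosl2, Junb, Egr1 to Egr4, Npas4, Arc, Nr4a1 to Nr4a3, Bdnf, Homer1, Dusp1 and Per1), mutant 0 h female 1 was among the 2 highest 0 h libraries for 16 genes and mutant 0 h male 1 for 9. Of the 17 genes, 9 were upregulated DEGs, where 0.301% of all genes tested were. All 17 had a positive change with an unadjusted p under 0.05, where 6.23% of all genes did. In 11 of them all 1 h libraries lay above all 0 h libraries, as in 1.07% of all genes.

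EGR factors are zinc finger proteins induced by synaptic activity, and NAB proteins are their corepressors. Of 6 members tested, 3 were upregulated, Egr1, Egr3 and Egr4, and the list median was 0.68. Egr4 (gene 13656, chr6:85511121-85513589) changed most of these, from 24, 33.1 and 46.3 CPM to 60.8, 66.5 and 79.2 CPM, a log2 fold change of 1.04 (SE 0.16, adjusted p 0.0199). Egr1 (gene 13653, chr18:34861207-34864956) went from 127, 147 and 187 CPM to 231, 270 and 344 CPM, a change of 0.87 (SE 0.13, adjusted p 0.0149). Both genes had every 1 h library above every 0 h library. Egr3 (gene 13655) went from 40.8, 50.4 and 58.8 CPM to 61.7, 71.3 and 77.2 CPM, a change of 0.49 (SE 0.08, adjusted p 0.0149). Egr2 (gene 13654), a further member of the family, had the steepest change of the panel, 1.85, with an SE of 0.39 and an adjusted p of 0.0979. Its level was 1.43, 2.89 and 6.16 CPM at 0 h and 9.4, 11.1 and 17.5 CPM at 1 h, with no overlap.

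NR4A proteins are orphan nuclear receptors needed for long-term memory in the hippocampus. Of 3 members, 2 were upregulated, and the list median was 0.73. Nr4a2 (gene 18227, chr2:57106830-57124003) went from 41.5, 48.6 and 63.8 CPM to 74.9, 81.1 and 96.0 CPM, a change of 0.73 (SE 0.09, adjusted p 0.00467). Nr4a3 (gene 18124) had a change of 0.55 (SE 0.09, adjusted p 0.0185), and its groups overlapped because 1 library at 0 h, female 1, reached 52.0 CPM where the lowest 1 h library held 48.7 CPM. Nr4a1 (gene 15370) did not pass, with 48.8, 68 and 100.3 CPM at 0 h and 103, 117 and 156 CPM at 1 h, a change of 0.74 (SE 0.19, adjusted p 0.171). Npas4 (gene 225872), a bHLH-PAS factor induced by depolarization, moved least clearly: it held 6.59, 8.46 and 15.8 CPM at 0 h and 9.86, 12.8 and 17.4 CPM at 1 h, with overlapping groups and a change of 0.50 (SE 0.21, adjusted p 0.407).

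**Figure D2:**
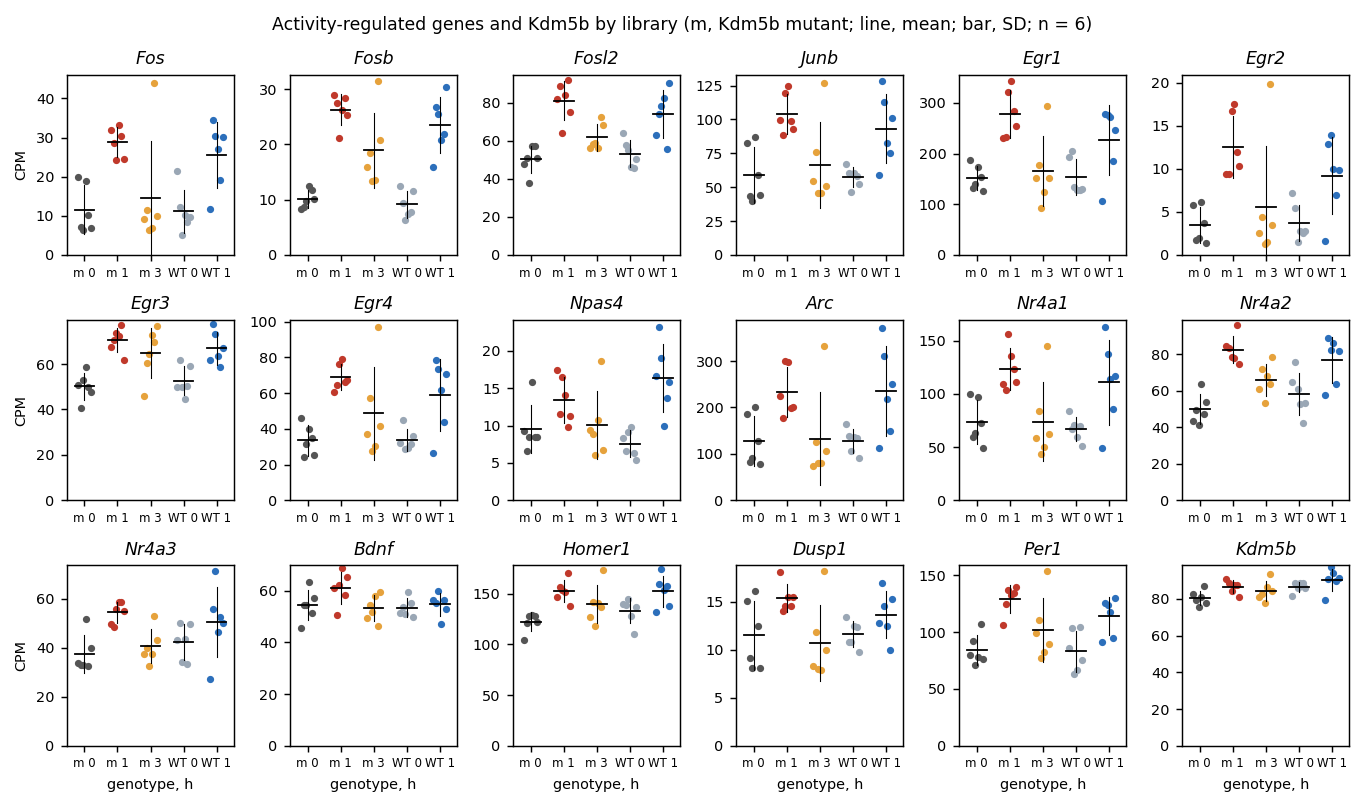
CPM (y axis, from 0) of the 17 panel genes and Kdm5b in every library of mutants at 0, 1 and 3 h and of WT at 0 and 1 h; lines are group means and bars SD, n = 6. The mutant 1 h libraries of Fosb lie between 21.2 and 28.8 CPM and those at 0 h between 8.29 and 12.4 CPM, while in Fos, Junb, Arc and Egr2 the 0 h libraries are spread widely.

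Other transcription factors among the DEGs came from several families. Klf2 (gene 16598, chr8:72319062-72321654), a Kruppel-like factor, went from 4.61, 5.67 and 6.85 CPM to 8.13, 9.54 and 11.7 CPM, a change of 0.79 (SE 0.11, adjusted p 0.00966), and was the only DEG of 15 Kruppel-like factors. Bhlhe22 (gene 59058, chr3:18054325-18057514), a neuronal bHLH repressor, went from 122, 133 and 150 CPM to 170, 182 and 208 CPM, a change of 0.45 (SE 0.06, adjusted p 0.00467). Neurod2, an activator of the same superfamily, changed by 0.27 (SE 0.04, adjusted p 0.0146), and these were 2 of 13 neuronal bHLH genes tested. Among 43 other immediate early regulators, Bcl6, a repressor of the BTB zinc finger class, and Rara, a retinoic acid receptor, were upregulated by 0.45 (SE 0.07, adjusted p 0.0149) and 0.44 (SE 0.08, adjusted p 0.0220). That list had 20 members higher and 2 lower at an unadjusted p under 0.05, where 6.23% and 4.84% of all genes were. Its median was 0.15. Srf, which encodes the serum response factor itself, was the only DEG of 20 genes for SRF, its TCF partners and CREB regulators, at 0.24 (SE 0.04, adjusted p 0.0255). Its level ran from 73.1 to 83.4 CPM at 0 h and from 87.2 to 98.9 CPM at 1 h.

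Among genes for small GTPases, which act on the cytoskeleton, calcium channels and membrane traffic, Gem and Arl5b were upregulated of 20 tested. Gem (gene 14579, chr4:11704447-11714993), a GTPase that restrains voltage-gated calcium channels, went from 1.68, 2.7 and 3.26 CPM to 4.97, 5.08 and 5.48 CPM, a change of 0.95 (SE 0.13, adjusted p 0.00843). Its 1 h libraries differed from each other less than its 0 h libraries did. Arl5b (gene 75869, chr2:15055252-15082456), an ARF-like GTPase of the Golgi, went from 17.5, 17.9 and 19.8 CPM to 22.2, 25.1 and 28.0 CPM, a change of 0.45 (SE 0.07, adjusted p 0.00966). Arhgef3 (gene 71704, overlapping Gm7591), a guanine nucleotide exchange factor, changed by 0.33 (SE 0.05, adjusted p 0.00843), from 87.5 to 103 CPM at 0 h to 112 to 125 CPM at 1 h.

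Of 32 synaptic effectors, Homer1 alone was upregulated, and 27 had a positive change with a list median of 0.12. Homer1 (gene 26556, chr13:93303757-93405129) encodes a postsynaptic scaffold whose short form is activity-induced; the gene count does not separate the forms. Its level went from 104, 125 and 129 CPM to 138, 153 and 170 CPM, a change of 0.32 (SE 0.06, adjusted p 0.0279). Arc (gene 11838), which drives endocytosis of AMPA receptors, held 77.9, 109 and 200.2 CPM at 0 h and 178, 213 and 301 CPM at 1 h. Its groups overlapped, and its change of 0.88 (SE 0.29) had an adjusted p of 0.280. Bdnf (gene 12064), the neurotrophin with the smallest p of 8 such genes, changed by 0.16 (SE 0.07, adjusted p 0.407), and Vgf, with the smallest p of 25 neuropeptide and granin genes, by 0.24 (SE 0.05, adjusted p 0.0794). None of either list was a DEG.

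Genes of membrane excitability were read as 3 lists, for glutamate receptors, potassium channels and GABA receptors. Grm2 (gene 108068, chr9:106644534-106656109), a presynaptic metabotropic glutamate receptor, was the only DEG of 37 glutamate receptor and AMPA auxiliary genes. It went from 61.7, 68.4 and 72.6 CPM to 78.0, 89.8 and 93.1 CPM, a change of 0.36 (SE 0.05, adjusted p 0.0118), while the list median was −0.02. The 46 potassium channel genes (median 0.05) and the 15 GABA receptor genes (median 0.02) held 0 DEGs with edgeR. At an unadjusted p under 0.05, 7 potassium channel genes were higher, Kcnk1 first at 0.16 (SE 0.04, adjusted p 0.128), and of the GABA receptor genes 1 was higher (Gabbr2, 0.11, SE 0.04, adjusted p 0.256) and 1 lower. Of all genes tested, 6.23% were higher and 4.84% lower at that p.

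Feedback regulators limit the kinase signals that switch on early genes. Of 26 Sprouty, SPRED and similar inhibitors, 1 was a DEG and 11 were higher at an unadjusted p under 0.05. Of all genes tested, 0.301% were upregulated DEGs and 6.23% were higher at that p. The DEG of this list was Sik2 (gene 235344, overlapping Ppp2r1b), a salt-inducible kinase that restrains CREB coactivators. It was at 17.2, 17.8 and 19.1 CPM at 0 h and 21.4, 22.9 and 24.3 CPM at 1 h, a change of 0.33 (SE 0.05, adjusted p 0.0118). Gadd45b (gene 17873, chr10:80930091-80932204), a stress sensor linked to DNA demethylation, went from 7.40, 9.82 and 12.4 CPM to 14.1, 15.1 and 17.2 CPM, a change of 0.63 (SE 0.09, adjusted p 0.00966), and was the only DEG of 13 genes of GADD45 and DNA methylation turnover. The 11 MAP kinase phosphatases held 0 DEGs with edgeR and 5 genes higher at an unadjusted p under 0.05. Their smallest p was that of Dusp4, at 21.6, 25.3 and 31.8 CPM and then 31.8, 36.2 and 39.7 CPM, a change of 0.44 (SE 0.09, adjusted p 0.0809). Dusp1, the member most used as an early gene, changed by 0.42 (SE 0.18, adjusted p 0.404), and its groups overlapped.

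Of 25 genes that respond to glucocorticoids, 22 had a positive change and the median was 0.36. Per1 and Pdk4 were DEGs, and 12 members in all were higher at an unadjusted p under 0.05, where 6.23% of all genes were. Per1 (gene 18626, chr11:69095108-69109965), a clock gene that is also an immediate early and glucocorticoid target, went from 71.4, 79.0 and 107 CPM to 106, 134 and 140 CPM, a change of 0.61 (SE 0.09, adjusted p 0.0149); its groups met at 1 library. It was the only DEG of 19 circadian clock genes. Sgk1, a kinase under glucocorticoid control, showed how the 0 h mice differed: male 2 held 149.8 CPM and female 2 211.6 CPM, and the others 55.8 to 61.1 CPM, while all 1 h libraries held 137.4 to 254.8 CPM. Its change was 0.89 with an SE of 0.38 (adjusted p 0.435), and it was chosen for this spread after its values were seen. The libraries with high Sgk1 at 0 h were not those with high Fos.

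Fuel sensing and insulin signalling gave 4 DEGs of 27 genes, with a list median of 0.08. With each library omitted in turn, Irs2 was a DEG in all 12 cases, Pdk4 in 6, Slc25a25 in 5 and Depp1 in 3. Irs2 (gene 384783, chr8:10984681-11008929, overlapping 9530052E02Rik), an adaptor of the insulin receptor, had the second smallest p of all genes. It went from 47.1, 54.3 and 65.9 CPM to 76.4, 80.3 and 86.7 CPM, a change of 0.54 (SE 0.06, adjusted p 0.00467), with no overlap. Pdk4 (gene 27273, chr6:5483351-5496278), a kinase that closes the entry of pyruvate into the citric acid cycle, went from 11.5, 13.5 and 16.0 CPM to 15.3, 22.4 and 25.0 CPM, a change of 0.63 (SE 0.11, adjusted p 0.0204). Slc25a25 (gene 227731, overlapping Naif1), a mitochondrial carrier of adenine nucleotides, changed by 0.28 (SE 0.05, adjusted p 0.0220). Depp1 (gene 213393, overlapping Rassf4), a FOXO target, changed by 1.45 (SE 0.28, adjusted p 0.0389), at levels of only 0.298 to 0.638 CPM and then 0.855 to 1.96 CPM. Tmem252 (gene 226040, overlapping Pgm5), a membrane protein of little known function, had the largest change of any DEG, 1.53 (SE 0.28, adjusted p 0.0289), at similarly low levels of 0.280 to 0.717 CPM and then 1.00 to 2.13 CPM.

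Protein folding genes gave 2 DEGs of 26 cytosolic chaperones, both HSP40 co-chaperones. Dnajb5 (gene 56323, chr4:42949867-42959425) went from 138, 147 and 154 CPM to 173, 192 and 220.2 CPM, a change of 0.43 (SE 0.06, adjusted p 0.00748). Dnajb1 (gene 81489) went from 40.4, 41.5 and 52.7 CPM to 54.5, 57.4 and 59.1 CPM, a change of 0.39 (SE 0.06, adjusted p 0.0117). The groups did not overlap in either gene, and the list median was 0.05. Of 21 ER chaperone and unfolded protein response genes 0 were DEGs with edgeR. At an unadjusted p under 0.05, 5 were higher (6.23% of all genes were), led by Hspa5 (BiP) at 0.21 (SE 0.06, adjusted p 0.140). Sterol and fatty acid synthesis genes, 23 tested, held 0 DEGs and 1 gene in each direction at that p, with Insig1 at −0.26 (SE 0.08, adjusted p 0.188).

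Kdm7a (gene 338523, chr6:39136620-39206773, overlapping 4930599N23Rik), a demethylase of histone H3 lysine 9 and lysine 27, was the only DEG of 45 histone lysine methylases and demethylases outside the KDM5 family. It went from 96.7, 104 and 122 CPM to 130.5, 138 and 146 CPM, a change of 0.38 (SE 0.05, adjusted p 0.00748). Of the list, 13 genes were higher and none lower at an unadjusted p under 0.05, where 6.23% and 4.84% of all genes were. Of the KDM5 family and Jarid2, 5 tested, 0 were DEGs with edgeR. Kdm5c, the X-linked relative of Kdm5b, had the smallest p of these, at 0.15 (SE 0.04, adjusted p 0.136). Rbm14, a paraspeckle protein, was the only DEG of 45 splicing and paraspeckle factors, at 0.26 (SE 0.05, adjusted p 0.0369), where 5 members were higher and 4 lower at an unadjusted p under 0.05. In all, 24 of the 52 upregulated DEGs were in none of the lists. Of the 15 upregulated DEGs with the smallest p, 3 were in none of the lists. Besides Arhgef3 they were P4ha1 (gene 18451), a collagen prolyl hydroxylase, at 0.34 (SE 0.05, adjusted p 0.00748), and Tmem151b (gene 210573, overlapping Tcte1), a membrane protein, which went from 137, 139 and 149 CPM to 166, 173 and 179 CPM, a change of 0.29 (SE 0.03, adjusted p 0.00467).

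**Figure D3:**
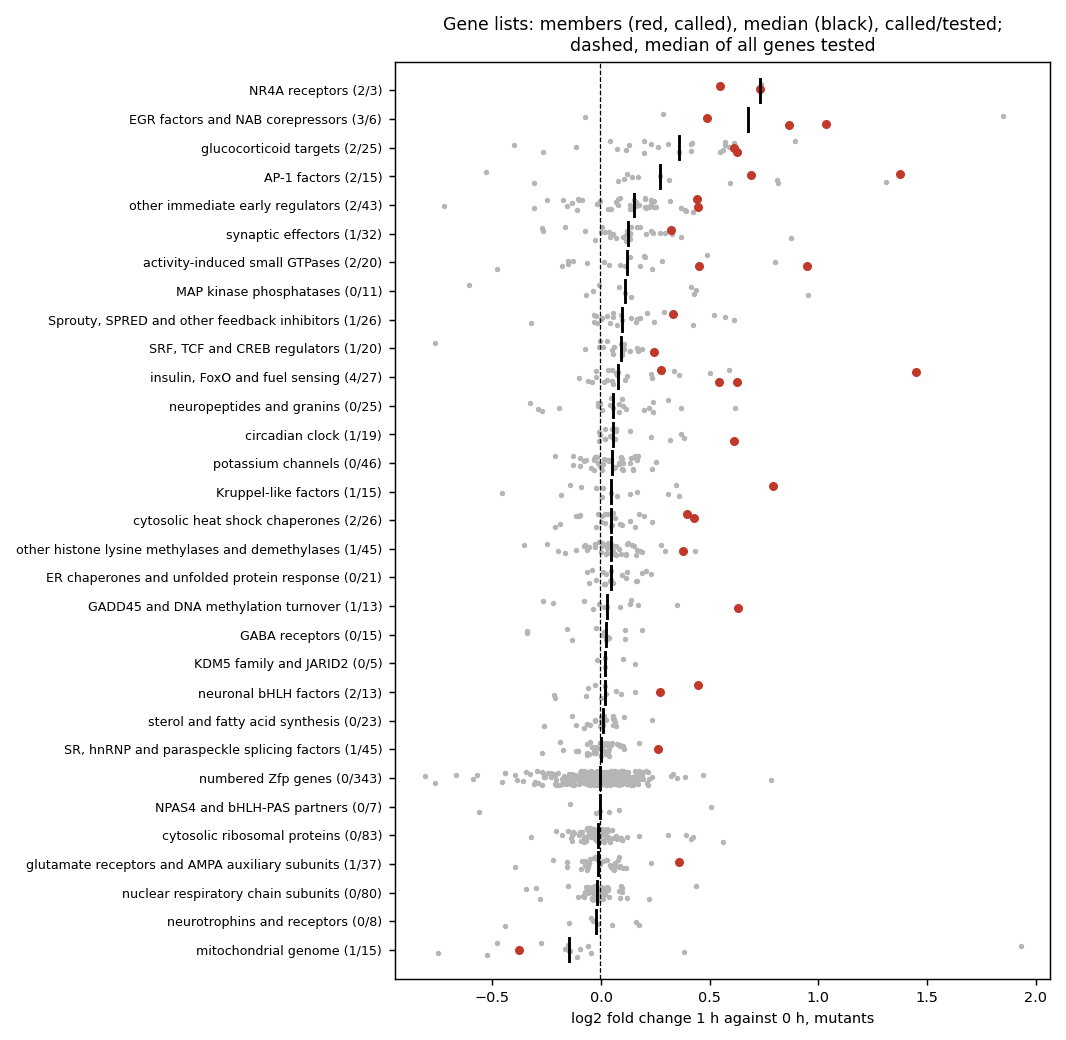
Log2 fold changes from 0 h to 1 h in mutants (x axis) of the members of 31 gene lists, with DEGs in red, other members in grey and list medians as black bars; labels give DEGs over members tested. The NR4A, EGR, glucocorticoid and AP-1 lists have medians of 0.73, 0.68, 0.36 and 0.27, against −0.01 for all genes (dashed line), and the mitochondrial genome lies lowest at −0.15.

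The downregulated DEGs were ND6 and Tubg2. ND6 (gene 17722, mitochondrial genome, positions 13552 to 14070), a subunit of respiratory complex I, overlaps ND5 on the other strand, and the strand setting of the counting is not given in the sources used here. It went from 871, 963 and 1113 CPM to 682, 752 and 816 CPM, a change of −0.38 (SE 0.06, adjusted p 0.0204). Tubg2 (gene 103768, chr11:101155874-101161787), a brain-enriched gamma-tubulin, went from 32.8, 34.2 and 36.2 CPM to 26.2, 29.2 and 31.3 CPM, a change of −0.24 (SE 0.05, adjusted p 0.0439). In both genes every 1 h library lay below every 0 h library. With each library omitted in turn, ND6 was a DEG 7 times of 12 and Tubg2 once, without mutant 1 h female 1. Neither was called with all 36 libraries or all 18 mutant libraries in 1 fit, with a replicate block, or without the 3 libraries at 0 h that were high in the striatal marker Six3.

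Of 15 tested, 13 had a negative change and 9, ND6 included, were lower at an unadjusted p under 0.05, where 4.84% of all genes were, with a list median of −0.15 in mutants. The share of all counts on the mitochondrial genome was 3.74% to 4.55% at 0 h (median 4.17%) and 3.49% to 3.85% at 1 h (median 3.72%), with overlap. In WT the list median was −0.0012, with shares of 3.22% to 4.94% at 0 h and 3.83% to 4.35% at 1 h. A single gene that has no name in the tables used here, singled out after its values were seen, held 0.74% to 1.23% of counts at 0 h (median 0.862%) and 0.998% to 1.30% at 1 h (median 1.14%) in mutants, and 0.934% to 1.34% and then 0.673% to 0.981% in WT. The part of library composition in the mitochondrial values was not tested. Respiratory chain subunits encoded in the nucleus, 80 tested, had a median of −0.02 with 0 DEGs and 0 genes at an unadjusted p under 0.05 with edgeR, and 83 cytosolic ribosomal proteins gave −0.01 and 0 and 0. Their smallest p values belonged to Cox6a2 (0.44, SE 0.25, adjusted p 0.553) and Rps4x (−0.09, SE 0.05, adjusted p 0.516). The 343 numbered Zfp genes, a wide family, held 0 DEGs and had a median of 0.00. At an unadjusted p under 0.05, 25 of them were higher and 24 lower, where 6.23% and 4.84% of all genes were. The first of them, Zfp941, was at −0.46 (SE 0.09, adjusted p 0.0636).

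Markers of neighbouring tissue differed between the libraries. Of 8 striatal markers, 0 were DEGs, but all 8 had a negative change, with a list median of −0.41. An unadjusted p under 0.05 was reached by 4 (Drd1, Drd2, Rgs9 and Six3), where 4.84% of all genes were lower at that p. The summed level of the 8 markers was 166 to 240.4 CPM at 0 h and 162 to 190.2 CPM at 1 h. Six3 was at 6.67 CPM in mutant 0 h male 1, 4.36 CPM in male 3 and 5.48 CPM in female 2, and at most 0.395 CPM in the other 0 h libraries and 1.01 CPM at 1 h. Choroid plexus and ependymal markers, 9 tested, held 0 DEGs and none at an unadjusted p under 0.05, but all 9 had a negative change with a median of −0.72, and −0.62 in WT. They were high in few mutant libraries: Ttr reached 2389 CPM in mutant 0 h male 1 and 998 CPM in mutant 1 h male 1, and 27.4 to 354.6 CPM in the others. Alternatives chosen after seeing these values left such libraries out. Without the 3 libraries high in Six3, which left 3 mice at 0 h, 21 genes were higher and 17 of these were among the 52. All 52 kept a positive change with a median of 0.40. Without the 2 libraries high in Ttr, 55 were higher, 38 of them among the 52, with a median change of 0.38 over the 52. Markers of neurons, glia and vessels held 0 DEGs, and the summed levels of each of these lists overlapped between 0 h and 1 h. At an unadjusted p under 0.05, the dentate granule cell markers Prox1 and Calb1 were higher and the interneuron markers Gad2 and Slc32a1 lower, with median summed levels of 636 and 668 CPM for the 9 dentate granule cell markers and 908 and 824 CPM for the 8 interneuron markers at 0 h and 1 h. Of the other lists of this kind, CA1 and CA3 pyramidal cells had 1 marker each higher at that p, astrocytes and vessels 1 each lower, and microglia 1 in each direction. Interferon response genes had a median of −0.31 with 2 of 8 lower at an unadjusted p under 0.05.

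**Figure D4:**
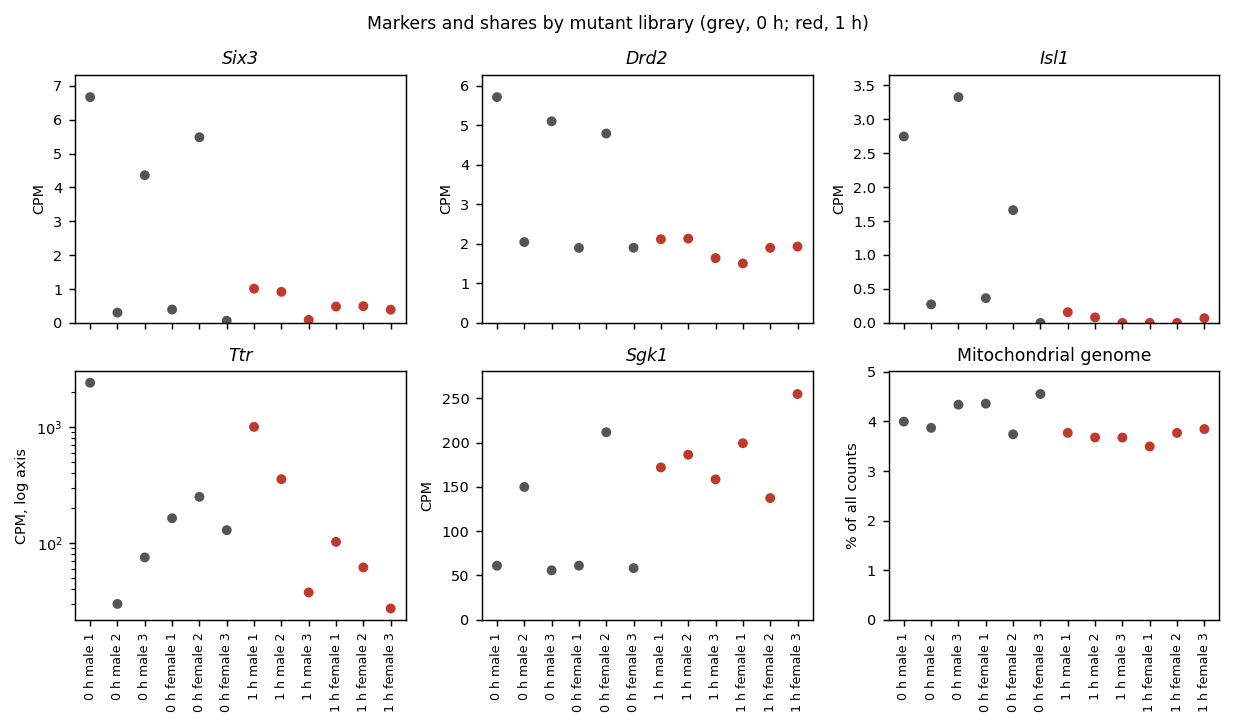
Levels of the striatal markers Six3, Drd2 and Isl1, of Ttr (log axis) and of Sgk1 in CPM, and the share of counts on the mitochondrial genome, in each of the 12 mutant libraries (grey, 0 h; red, 1 h). Six3 is above 4 CPM in 3 libraries at 0 h and at most 1.01 CPM at 1 h, and Sgk1 is above 149 CPM at 0 h in male 2 and female 2 alone.

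Whether the response was particular to mutants was asked with WT mice, which share no library with them. In WT, 0 of 17319 genes passed with edgeR (0%), 928 had an unadjusted p under 0.05, and DESeq2 called 9. Without WT 1 h male 1, the library whose sex markers go against its label, 3 genes passed, Fosb, Nr4a1 and Dnajb5, and 1166 had an unadjusted p under 0.05. All 52 genes upregulated in mutants also had a positive change in WT, where 47.9% of all genes did (49.1% without WT 1 h male 1). Of these, 27 had an unadjusted p under 0.05 in WT, against 2.92% of all genes tested that were higher at that p. Without WT 1 h male 1 these were 43 genes and 4.17%. The median change of the 52 was 0.21 in WT, or 0.26 without WT 1 h male 1, and 0.39 in mutants. The mutant value is raised by the choice of these genes on the mutant data, so the medians were not compared by a test.

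Single genes ranged from near-equal to unequal changes. Fosb was at 1.35 (SE 0.20) in WT and 1.37 in mutants, and Dnajb1 at 0.40 (SE 0.12) and 0.39. Bhlhe22 was at 0.15 (SE 0.09) in WT and 0.45 in mutants, and Klf2 at 0.35 (SE 0.22) and 0.79. Npas4 had the larger value in WT, at 1.08 (SE 0.17) against 0.50. Without WT 1 h male 1 the WT values were 1.46 for Fosb, 0.50 for Dnajb1, 0.19 for Bhlhe22, 0.49 for Klf2 and 1.11 for Npas4. The test of the difference, the interaction of genotype and time over 24 libraries, called 0 of 17907 genes with edgeR (0%) and 0 with DESeq2. An unadjusted p under 0.05 was reached by 677 genes (3.78%), and by 8 of the 52. Without WT 1 h male 1 it still called 0 genes with edgeR, and 615 genes, 5 of them among the 52, had an unadjusted p under 0.05. The interaction was 0.02 for Fosb (p 0.946), 0.30 for Bhlhe22 (p 0.0106) and −0.61 for Npas4 (p 0.0491), before adjustment, and the smallest adjusted p of any gene was 0.999. The named genes with the smallest p were Zxda, a zinc finger gene on the X chromosome, at −0.47 (p 0.000200), Lynx1, a brake on nicotinic receptors, at 0.46 (p 0.000340), Ankrd33b at 0.33 (p 0.000737), the tRNA synthetase gene Tars at 0.20 (p 0.000825) and Mir3091, a hairpin within Rps21, at 1.73 (SE 0.47, p 0.00110). Mir3091 held only 0.0451 to 0.206 CPM in these 24 libraries, and its reads cannot be told apart from those of Rps21. Without WT 1 h male 1 these 5 values were −0.48, 0.46, 0.33, 0.20 and 1.72 in the same order. A response particular to mutants was therefore not detectable for any single gene in these 24 libraries.

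**Figure D5:**
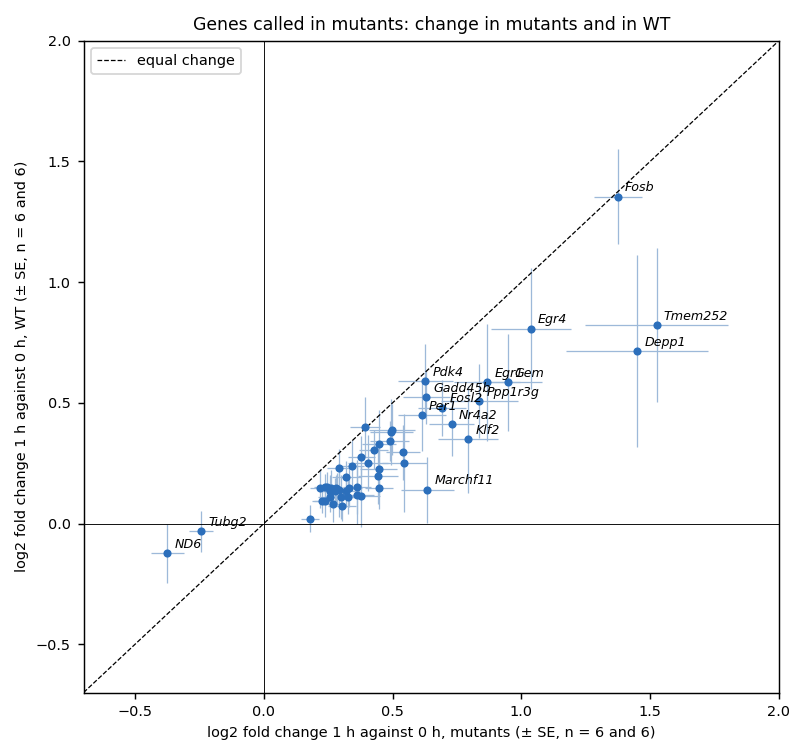
Log2 fold change from 0 h to 1 h of the 54 mutant DEGs in mutants (x axis) and in WT (y axis), with bars for SE, n = 6 mice per group. All 52 upregulated genes lie above 0 in WT, 51 of them below the dashed line of equal change (48 without WT 1 h male 1); the genes were chosen on the x axis values.

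Values were also read in each sex of the mutant group. The 52 genes were called on these same mice, so a like direction in both sexes follows in part from the choice. All 52 upregulated genes had a positive change in the 3 females against 3 and in the 3 males against 3, with medians of 0.37 and 0.45. Fosb changed by 1.22 in females and 1.53 in males, and Irs2 by 0.39 and 0.69. The interaction of sex and time called 0 of 17282 genes with edgeR (0%), with 855 at an unadjusted p under 0.05 (4.95%), and 3 with DESeq2. The genes with the smallest p were Asic4, a member of the acid-sensing channel family, with −0.01 in females and 1.18 in males (interaction 1.19, p 0.000148), Ogn, an extracellular matrix proteoglycan overlapping Cenpp, with −0.20 and 0.51 (p 0.000327), and the synaptic organizer C1ql3 with 0.09 and 0.46 (p 0.000459). The smallest adjusted p was 0.958.

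The 3 h mutants share their 0 h libraries with the main comparison, so the values are given side by side only. The 52 genes were chosen for their change at 1 h, which by itself makes smaller values at 3 h likely. Of 17285 genes, 0 passed at 3 h against 0 h with edgeR (0%), 1481 had an unadjusted p under 0.05 (8.57%; 1952 without mutant 3 h female 2), and DESeq2 called 110 higher and 32 lower. Without the library labelled mutant 3 h female 2, 1 gene passed, the phosphodiesterase gene Pde10a, and without mutant 0 h female 2, 10 did. The median change of the 52 genes was 0.39 at 1 h and 0.19 at 3 h, or 0.17 without that library. Fosb went from 1.37 at 1 h to 0.89 (SE 0.16) at 3 h, Irs2 from 0.54 to 0.36 (SE 0.08), Fosl2 from 0.69 to 0.30 (SE 0.08) and Gem from 0.95 to 0.47 (SE 0.24). Gadd45b was at 0.14 (SE 0.13), Egr1 at 0.11 (SE 0.24) and Arl5b at 0.07 (SE 0.10) at 3 h. Without mutant 3 h female 2, Fosb was at 0.72, Irs2 at 0.37, Fosl2 at 0.27, Gem at 0.19 and Gadd45b at 0.02, and the signs of Egr1 (−0.12) and Arl5b (−0.00478) turned. Fos turned from 0.23 to −0.39. Mutant 3 h female 2 held 43.9 CPM of Fos and 332 CPM of Arc, where the other 3 h libraries held at most 11.6 and 125 CPM. The thyroid hormone activating enzyme Dio2, an upregulated DEG outside the rule for named genes and chosen after its values were seen, was at 0.50 at both times (SE 0.09 and 0.11).

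Promoters of the upregulated genes were searched for motifs of factors tied to activity and stress. RefSeq promoter sequences (GRCm38.p6, 250 bases before to 50 after a start site) were found for 42 of the 52 genes, 57 promoters in all. On either strand the CRE, the binding site of CREB (TGACGTCA), was in 4 of these 57 (7.02%) and in 1.79% of all 32851 promoters. The EGR site (GCGNGGGCG) was in 12 of 57 (21.1%) and in 5.55% of all promoters, and the E-box CACGTG in 10 (17.5%) and 7.15%. The CArG box, bound by SRF, was in 2 (3.51%) and 1.63%. The AP-1 site (TGANTCA) was in 0 of 57 and in 7.81% of all promoters, and the full glucocorticoid response element in 0 and in 0.00913%. Restricted to promoters of the genes tested, the shares were 2.73% for the CRE, 9.83% for the EGR site and 9.23% for the E-box. The EGR site and E-box letters are rich in G and C, the base composition of the promoters was not matched, and no test was made. A match is a description of the letters only. Shown are the stretches before a start site, without annotated exons, of the named upregulated genes that hold a CRE or CArG box, 5′ to 3′ on the gene's strand and with these motifs in capitals. They are Arl5b (chr2:15055070-15055239, plus strand), Slc25a25 (chr2:32424067-32424316, minus strand) and Srf (chr17:46556176-46556412, minus strand), all at start sites within the annotated span of the gene.
Arl5b: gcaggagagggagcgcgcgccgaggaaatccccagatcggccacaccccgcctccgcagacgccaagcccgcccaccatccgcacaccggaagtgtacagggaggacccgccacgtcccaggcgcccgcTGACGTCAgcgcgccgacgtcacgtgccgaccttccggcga
Slc25a25: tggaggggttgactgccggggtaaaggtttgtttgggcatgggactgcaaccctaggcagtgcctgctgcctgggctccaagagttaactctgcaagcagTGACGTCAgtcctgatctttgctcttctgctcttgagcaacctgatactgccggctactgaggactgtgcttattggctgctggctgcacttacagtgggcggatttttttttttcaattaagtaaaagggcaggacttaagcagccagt
Srf: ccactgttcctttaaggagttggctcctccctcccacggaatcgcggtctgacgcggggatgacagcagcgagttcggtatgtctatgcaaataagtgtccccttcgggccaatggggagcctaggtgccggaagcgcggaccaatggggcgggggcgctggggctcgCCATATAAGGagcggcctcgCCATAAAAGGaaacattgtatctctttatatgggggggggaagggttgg
The CRE of Arl5b began 121 bases and that of Slc25a25 150 bases before the start site. Srf held 2 CArG boxes, beginning 82 and 62 bases before its start site. Arl5b and Slc25a25 rose by log2 fold changes of 0.45 and 0.28, and Srf by 0.24.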

How the data were processed

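RNA was extracted from dorsal hippocampus of 1 mouse per library, selected for poly-A and sequenced as 150 base pairs from both ends. Per the labels and the study's methods, the authors aligned reads with RNA STAR 2.7.8a to mm10 (GRCm38) and counted reads per gene with featureCounts 2.0.1. The strand setting, multi-mapping and annotation are not given in the sources used here. The deposited values are raw counts for 27179 genes per library, of which 25275 were named from RefSeq (GRCm38.p6) and 1904, holding 1.28% of counts, have no name. Genes were filtered (edgeR 4.0.16 filterByExpr, minimum count 10), normalized with TMM and tested with edgeR's quasi-likelihood test (R 4.3.3) with labelled sex as covariate, and called at a Benjamini-Hochberg adjusted p under 0.05. Interactions of time with genotype and sex used the same test. DESeq2 1.42.0, RLE factors, other filters, other library sets, a replicate block and leaving out each library were alternatives. The fits were tested on simulated data. p-values measure the spread between mice. Members and lists were chosen with earlier results of these data known. Named genes were the 15 upregulated and 10 downregulated DEGs with the smallest p, up to 4 DEGs of each list or else its smallest p, a panel of activity genes with Kdm5b, the 3 largest changes in each direction, and the smallest p of the interactions (5 by genotype, 3 by sex). Sequences came from RefSeq, exons from GENCODE. The 8 samples of the first cohort were not analysed here.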

Additional observations from a re-analysis of the deposited data

Results flagged for a closer look

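Among 81 genes with values, each with 2 mutant groups of 6 libraries, 13 groups held a library far from the others by Dixon's criterion, while chance flags about 1 in 20 groups. At 0 h, Npas4 was at 15.8 CPM in mutant 0 h female 1, with a median of 8.46 CPM over the 6 libraries. Dnajb1 was at 52.7 CPM, Homer1 at 104 CPM and Zfp941 at 15.8 CPM in mutant 0 h male 1, where the medians were 41.5, 125 and 21.6 CPM. Kdm7a was at 122.0 CPM and Rundc1 at 22.2 CPM in mutant 0 h female 2, with medians of 104 and 20.6 CPM, and Gfod1 at 192 CPM in mutant 0 h female 3, with a median of 169 CPM. At 1 h, mutant 1 h male 3 held 249.0 CPM of Vgf, 284 CPM of Neurod2 and 51.2 CPM of Mknk2, with medians of 295, 259 and 47.3 CPM. Dusp1 was at 18 CPM in mutant 1 h male 1 (median 15 CPM), Kcnk1 at 109.8 CPM in mutant 1 h male 2 (median 100.4 CPM) and Tars at 39.2 CPM in mutant 1 h female 1 (median 35.4 CPM). Dnajb1, Kdm7a, Gfod1, Neurod2 and Mknk2 were called in all 12 cases with 1 library omitted, Rundc1 in 9 and Homer1 in 6.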

How the results depend on the processing

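Over 24 alternatives, 2 of them (libraries high in Six3 or Ttr left out) chosen after seeing the data, all 52 upregulated genes kept a positive change, and 8 were called in every alternative (Fosb, Irs2, Tmem151b, Bhlhe22, Nr4a2, Kdm7a, Arhgef3 and Klf2). The number of genes higher was 260 with DESeq2 and sex, 299 with DESeq2 without covariate, 33 with all 18 mutant libraries in 1 fit and 21 without the libraries high in Six3, which also leaves fewer mice. The number of genes lower was 110 and 128 with these DESeq2 fits, 4 without a filter, 4 without the sex covariate, 5 with 36 libraries in 1 fit, 1 with 18 mutant libraries, 1 without mitochondrial, ribosomal and unnamed genes, and 5 without the libraries high in Ttr. With sex and replicate number as a replicate block, 37 genes were higher (31 of the 52) and 0 lower, with 2020 at an unadjusted p under 0.05. The numbers are not known to pair mice: same-numbered mutant libraries deviated together with correlations of −0.011 to 0.165, over 0.1 in 2 of 6 pairs, and 3 of 6 correlated best with their own number. The block changed no count of calls in WT, at 3 h or in the interactions. Leaving out 1 library gave 26 to 84 genes higher, 0 to 8 lower, 0 to 3 called in WT, and 0 to 0 for the interactions with genotype and sex and for the named genes at 3 h. The sex interaction called 3 genes with DESeq2. WT gave 9 with DESeq2 and 1 with 36 libraries in 1 fit. At 3 h, 11 named genes were called with DESeq2. Of the genes with values, none turned sign in the comparison of 1 h with 0 h. At 3 h, 12 of 60 genes (the 52 and the panel) did. With 1 library left out, these ran from −0.00478 to 0.13 (Arl5b), −0.12 to 0.23 (Egr1), −0.11 to 0.015 (Utp14b), −0.44 to 0.15 (Depp1), −0.14 to 0.23 (Npas4), −0.069 to 0.023 (Bdnf), −0.39 to 0.61 (Fos), −0.12 to 0.35 (Junb), −0.37 to 0.89 (Egr2), −0.44 to 0.24 (Arc), −0.31 to 0.14 (Nr4a1) and −0.31 to 0.040 (Dusp1). Except for Utp14b and Bdnf, the lowest value was the one without mutant 3 h female 2. Without the sex covariate and with 36 libraries in 1 fit, Depp1 was at 0.13 and 0.079, Arc at 0.060 and 0.041, and Nr4a1 at 0.0049 and 0.00045. The causes of these shifts were not tested. Depp1 and Tmem252, at 0.280 to 2.13 CPM, have the largest SEs among the DEGs (0.28 each).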
